A study of Homo sapiens with 8 samples.

Results

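The difference between RNF14 knockout and wild-type HAP1 cells in how their ribosome footprints changed during 30 min of recovery from RNA-protein crosslinking was measured transcript by transcript. For each transcript the change from 0 to 30 min in wild type was subtracted from the change from 0 to 30 min in the knockout, on the mean log2(RPKM + 1) of each group, where RPKM is the read count scaled by transcript length and library total. A positive value means that the change in the knockout was the higher of both, and is called higher in the knockout recovery below. The transcripts were those with at least 10 reads on average over the 8 libraries, which held for 9389 of 19580, or 47.95%. On either side of that limit, 230 transcripts with 10 to under 11 reads had a median difference of 0.30 and 233 with 9 to under 10 reads had a median of 0.34.

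HAP1 is an adherent, near-haploid human cell line that derives from a chronic myeloid leukaemia line. The groups were wild type at 0 min, wild type at 30 min, RNF14 knockout at 0 min and RNF14 knockout at 30 min, with 2 replicates each, and nothing in the labels says whether these were separate cultures. All of them, wild type included, had grown for 18 h with 4-thiouridine (4SU) at 5 uM and were then irradiated with UVA at 6 kJ/m2, so no group was left uncrosslinked. Whether the knockout was 1 clone is not given in the sources used here.

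RNF14 is an E3 ubiquitin ligase that works with the ribosome-bound protein GCN1 at stalled ribosomes, where it marks proteins that block the A site for degradation by the proteasome. 4SU is built into new RNA in place of uridine and, when excited by UVA, ties bound proteins to that RNA, so that a ribosome reading the message can run into a protein it cannot pass. Footprints are the stretches of mRNA that a ribosome shields from nuclease, and the reads of a transcript count the ribosomes on it. They carry both the amount of the mRNA and how densely it is translated, and with no RNA libraries analysed here these cannot be told apart.

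The deposited table lists transcripts by Ensembl identifier alone, and the available RefSeq table held 0 such identifiers, so 0 identifiers could be named. Transcripts are therefore grouped by length, by read number, and by mean recovery and mean genotype gap in the same libraries. Single ones are given by length, with 4 identifiers printed. The level of RNF14 in the knockout and the lineage markers of HAP1 were not analysed here, for the same reason. The libraries held between 323946 and 1241975 reads. The shallowest were both knockout libraries at 30 min, with 323946 and 459227 reads, and the spread between replicates over the tested transcripts was highest in that group, at an SD of 0.45 on the log2 scale, against 0.26 in the knockout at 0 min, 0.34 in wild type at 30 min and 0.33 in wild type at 0 min.

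No transcript had a difference in recovery beyond the error at an adjusted p below 0.05 (limma-trend, Benjamini-Hochberg over 9389 transcripts), which is 0% of those tested. The lowest limma adjusted p was 0.0722. The differences were not small in themselves. They ran from -2.76 to 3.33, with a median of 0.06 and an SD of 0.65, and 1123 transcripts, 11.96% of all, differed by over 1, a factor of 2 on the log2 scale. Of these, 772 were higher and 351 lower in the knockout recovery. At an unadjusted p below 0.05 there were 781 transcripts higher (8.32%) and 662 lower (7.05%) in the knockout recovery, together 15.4%. A count model on the reads recovered from the table (limma voom) called 98, of which 77 were higher (0.82%) and 21 lower (0.224%). The spread in the fit is common to 4 groups of 2 libraries with 4 residual degrees of freedom, and the median standard error was 0.44 for the difference against 0.31 for the recovery in either genotype. A transcript with that error needed a difference of 0.95 to reach an unadjusted p of 0.05, so smaller differences were not detectable at the median precision, and a count of 0 is no evidence of equal recovery.

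**Figure D1:**
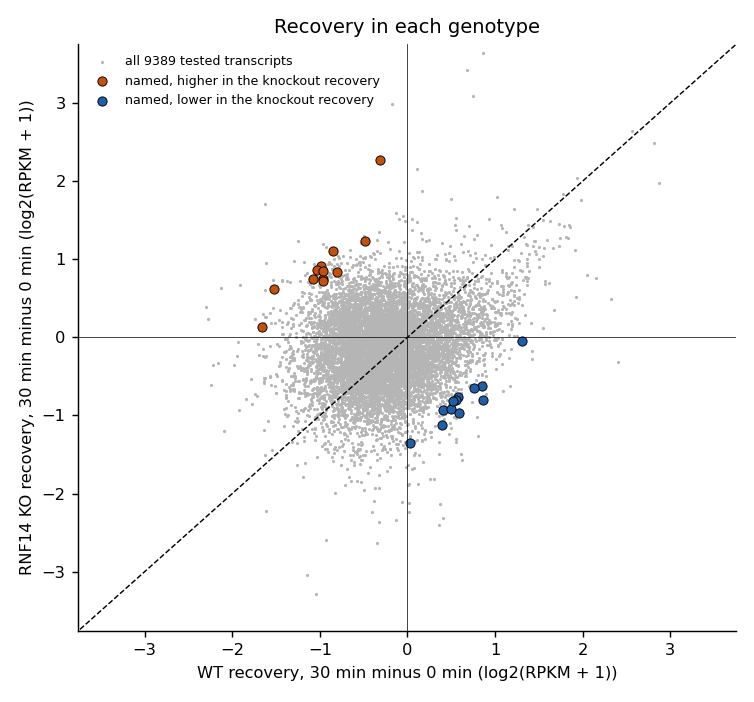
Change from 0 to 30 min in wild type (horizontal axis) against the change in the RNF14 knockout (vertical axis), both as differences of group means of log2(RPKM + 1), for 9389 transcripts in grey. The dashed line marks equal change; the 12 named transcripts higher in the knockout recovery lie at wild-type changes from -1.66 to -0.32 and the 12 lower ones at wild-type changes from 0.03 to 1.31.

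The call count depended on the set of transcripts and on single libraries. When the same test was fitted to the 3496 transcripts with at least 50 reads on average, 78 were called, 47 higher (1.34%) and 31 lower (0.887%), and 52 of these 78 were among the voom calls. Without knockout 30 min replicate 2 limma-trend called 205 of 9389 transcripts, 89 higher and 116 lower, and without knockout 30 min replicate 1 it called 7, 2 higher and 5 lower. The lone library left in the group is then assumed to vary like the other groups. With voom, 0 remained without wild type 30 min replicate 1 and 1005 were called without wild type 0 min replicate 2. The balance of directions at an unadjusted p below 0.05 differed with the scaling, with the transcripts tested and with single libraries. The deposited RPKM gave 781 higher and 662 lower, and TPM gave 1166 and 359. Centring the libraries on their medians gave 480 and 1059, and quantile normalization gave 611 and 638. With at least 50 reads there were 386 higher and 478 lower, and without wild type 0 min replicate 1 there were 453 and 534. The median difference of all 9389 transcripts was 0.06, 0.24, -0.12 and -0.01 under RPKM, TPM, median centring and quantile normalization, so the sign of a small difference depends on the scaling, and groups of transcripts are compared below with this median.

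Transcript length put the classes in order. The median difference in recovery went up with each step of length, from -0.38 for the 194 transcripts of up to 600 nt, to -0.31 for 576 of over 600 to 1000 nt, -0.12 for 2202 of over 1000 to 2000 nt, 0.12 for 3528 of over 2000 to 4000 nt and 0.26 for 2889 of over 4000 nt. Short messages thus had the lower change in the knockout and long ones the higher, against the median of 0.06 over all. Among those of up to 600 nt, 50 had an unadjusted p below 0.05 and were lower (25.8%, against 7.05% of all). In that class 4 were higher (2.06%, against 8.32% of all). Among those of over 4000 nt, 57 were lower (1.97%, against 7.05% of all). The 295 higher ones in that class were 10.2%, not far from the 8.32% of all.

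Both genotypes contributed to this order. In wild type the median change over recovery was -0.04 for transcripts of up to 600 nt and -0.32 for those of over 4000 nt. In the knockout the order was reversed, with -0.35 and -0.06. The median of the short class minus that of the long class was 0.29 for wild type and -0.30 for the knockout, and after quantile normalization it was -0.08 and -0.24, so the wild-type order turned with the scaling. The genotypes differed in the same respect before any recovery. At 0 min the knockout minus wild type median was 0.19 for transcripts of up to 600 nt and -0.21 for those of over 4000 nt, and after recovery it was -0.16 and 0.04. The gap between the 2 class medians, up to 600 nt minus over 4000 nt on the log2(RPKM + 1) scale, was 4.52 and 4.95 in the libraries of wild type before recovery, 5.05 and 4.93 in wild type after recovery, 5.12 and 5.08 in the knockout before recovery and 4.61 and 4.86 in the knockout after recovery. Wild type 0 min replicate 1 and knockout 30 min replicate 1 had the lowest gaps, and the replicates of wild type before recovery differed from each other by more than wild type 0 min replicate 2 differed from either library after recovery.

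The size of the length order rested on those libraries. In the replicate 1 libraries alone the median difference in recovery was -0.57 for transcripts of up to 600 nt and 0.43 for those of over 4000 nt, and in the replicate 2 libraries, which are separate, it was -0.16 and 0.05. The direction was the same and the size was not. Without wild type 0 min replicate 1 the medians were -0.27 and 0.15, and without knockout 30 min replicate 1 they were -0.28 and 0.20. After quantile normalization they were -0.05 and 0.09. The medians for up to 600 nt and for over 4000 nt kept their signs in all 20 alternative settings listed for them. Among these settings, no filter, the replicate block and no trend in the prior returned the same medians, as they could not move them. The median for over 1000 to 2000 nt turned positive with TPM (0.06) and that for over 2000 to 4000 nt turned negative with median centring (-0.06).

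**Figure D2:**
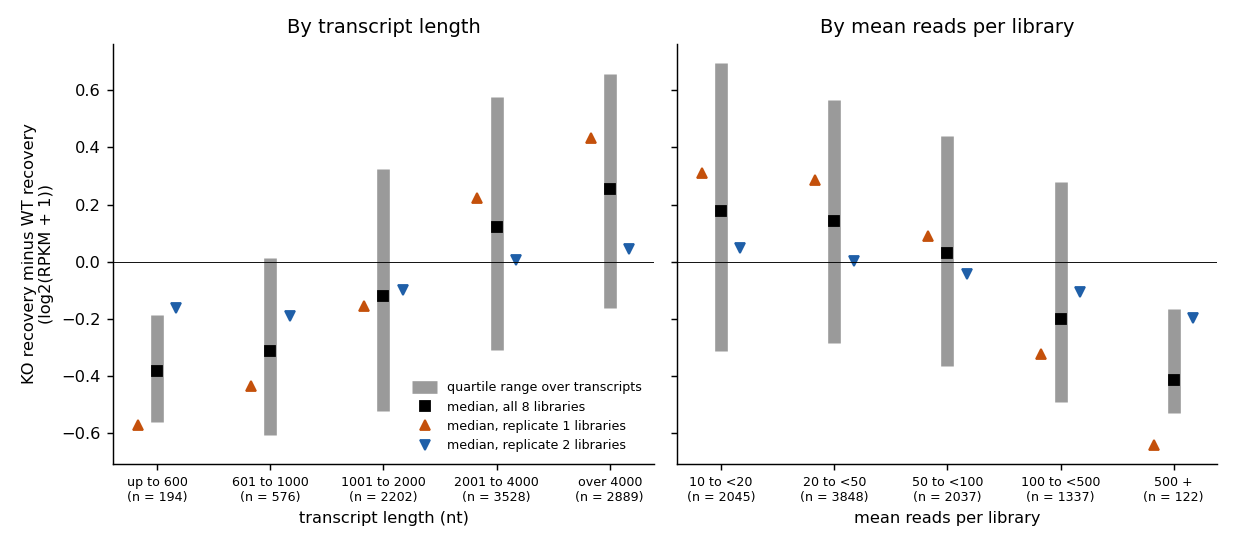
Difference in recovery, knockout minus wild type, by transcript length (left) and by mean reads per library (right). Grey bars span the quartiles over transcripts, black squares give the median from all 8 libraries, and triangles give the medians from the replicate 1 libraries and the replicate 2 libraries; the replicate 1 medians run from -0.57 to 0.43 over the length classes and the replicate 2 medians from -0.19 to 0.05.

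The length classes were also compared by the share of all reads that each took, from the same reads and counted over all 19580 transcripts. Transcripts of over 4000 nt took 34.3% and 32.0% of reads in wild type before recovery and 27.8% and 30.6% after recovery. In the knockout they took 28.7% and 29.4% before recovery and 31.2% and 29.4% after recovery. Wild type before recovery lay above the other 6 libraries. Wild type after recovery overlapped both knockout groups, which were apart from each other by a narrow gap. The time difference was -3.995 percentage points for wild type and 1.26 for the knockout, 5.26 points apart. All 4 differences between a library after recovery and one before recovery lay between -6.54 and -1.45 in wild type and between 0.03 and 2.49 in the knockout, so the genotypes did not overlap. Permuting the time labels within each genotype (exact, two-sided, 36 arrangements) returned p = 0.0556, the lowest value this design can reach, and 0.5 after Benjamini-Hochberg adjustment over 9 shares tested. The class includes the most read transcript of all, of 4298 nt. Without it the time difference was -5.53 points for wild type and -1.31 for the knockout, 4.22 apart, with an exact permutation p of 0.333. These arrangements assume no change over time in either genotype, so neither p-value tests the genotype difference alone. Swapping the times in 1 genotype gives a larger gap wherever both changes share a sign, as they did without this transcript.

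Transcripts of up to 600 nt took 6.77% and 7.86% of reads in wild type before recovery and 13.8% and 12.3% after recovery. In the knockout they took 8.77% and 8.65% before recovery and 12.2% and 12.3% after recovery. Recovery separated the libraries of both genotypes without overlap. The knockout share was thus higher after recovery, although the median change of the 194 tested transcripts of this class was -0.35 there. The share was higher after recovery by 5.75 points in wild type and by 3.54 in the knockout, and the ranges of the 4 differences, 4.44 to 7.07 and 3.48 to 3.61, did not overlap. The same exact permutation test gave p = 0.556. Its arrangements that swap the times in 1 genotype carry the recovery common to both, so it does not test the genotype difference alone.

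The middle classes also separated the genotypes by that measure. The share of transcripts of over 600 to 1000 nt was higher after recovery by 2.44 points in wild type and by 0.08 in the knockout (exact permutation p = 0.222). That of transcripts of over 1000 to 2000 nt differed by 0.03 points in wild type and by -2.44 in the knockout (exact permutation p = 0.167). That of transcripts of over 2000 to 4000 nt differed by -4.23 and -2.44 points (exact permutation p = 0.556). In each of these 3 classes the wild-type and knockout ranges of the 4 library differences did not overlap, and none of the 9 shares had an adjusted p below 0.5.

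**Figure D3:**
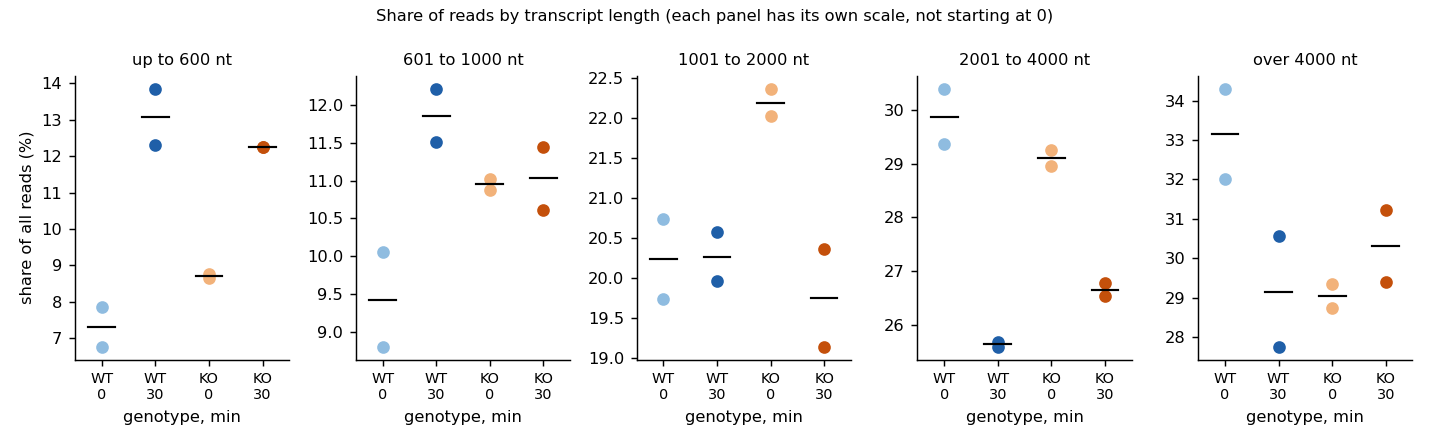
Share of all reads in percent taken by transcripts of each length class, with 1 point per library, the group mean as a line, and wild type (WT) and RNF14 knockout (KO) at 0 and 30 min along the horizontal axis; each panel has its own scale, which does not start at 0. The share of transcripts over 4000 nt was 34.3% and 32.0% in wild type before recovery and between 27.8% and 31.2% in the other 6 libraries.

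How many reads a transcript had also went with its difference in recovery. The median difference went down in steps from 0.18 for 2045 transcripts with 10 to under 20 reads on average, to 0.14 with 20 to under 50, 0.03 with 50 to under 100, -0.20 with 100 to under 500 and -0.41 for the 122 transcripts with 500 reads or more. In this last class the median change was 0.27 for wild type and -0.08 for the knockout, and 50 of the 122, or 41.0%, had an unadjusted p below 0.05 and were lower in the knockout recovery, against 7.05% of all. Together the share of reads of those 122 was higher after recovery by 9.33 percentage points for wild type and 6.96 for the knockout, and the ranges of the 4 library differences, 7.47 to 11.2 and 6.76 to 7.16, did not overlap (exact permutation p = 0.556). As with length, the replicate 1 libraries gave a larger median for this class (-0.64) than the replicate 2 libraries (-0.20), and after quantile normalization it was -0.04. Well-read transcripts were short, with a median of 995 nt at 500 reads or more against 2797 nt for all tested. Within the 3496 transcripts of at least 50 reads the order by length was still there, from -0.39 for up to 600 nt (130 transcripts) to 0.22 for over 4000 nt (1070 transcripts).

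The most read transcript, of 4298 nt, had a positive change in wild type, where its length class had a negative one. It took 6.77% and 7.22% of reads in wild type before recovery and 7.74% and 9.32% after recovery, and 5.89% and 6.20% in the knockout before recovery and 8.85% and 8.37% after recovery. Its share was higher after recovery by 1.53 percentage points in wild type and 2.57 in the knockout. Here the ranges of the library differences, 0.52 to 2.55 and 2.18 to 2.97, overlapped. For the 100 most read transcripts of each library the time differences were 9.54 points in wild type and 7.68 in the knockout, again with overlap.

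Transcripts with more reads had the smaller errors. The median standard error of the difference was 0.52 at 10 to under 20 reads, 0.46 at 20 to under 50, 0.39 at 50 to under 100, 0.31 at 100 to under 500 and 0.21 at 500 or more. The difference that reaches an unadjusted p of 0.05 at these errors was 1.13 in the first class and 0.45 in the last. The separate replicate sets agreed more in better read classes, up to under 500 reads. Across transcripts, which are not independent replicates and share the library totals, the differences from the replicate 1 and the replicate 2 libraries correlated with Pearson's r = 0.14 at 10 to under 20 reads, 0.21, 0.33 and 0.41 in the next 3 classes and 0.32 at 500 or more, and with r = 0.23 over all 9389.

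Transcripts chosen on 1 replicate set were read in the other, among the 3496 with at least 50 reads. The 100 that were highest in the replicate 1 libraries had a median difference of 1.97 there and 0.54 in the replicate 2 libraries, where 81 of them were above 0, as were 44.4% of all 3496. The 100 lowest in replicate 1 had medians of -1.58 and -0.28, and 73 of them were below 0 in replicate 2, as were 55.6% of all. Chosen on replicate 2, the 100 highest had medians of 1.39 and 0.52 and the 100 lowest -1.18 and -0.48. The sign thus carried over more often than in the whole set, and the size was smaller in the libraries not used for the choice. These transcripts are not independent replicates, and the replicate numbers do not pair the libraries, so other splits were possible. The part of length and read number in this was not tested.

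Transcripts were also described by whether the recoveries overlapped. The 4 possible differences between a library after recovery and a library before recovery were formed in each genotype. In 1632 transcripts (17.4%) all 4 knockout differences lay above all 4 wild-type ones, and in 1341 (14.3%) all lay below. In the first set the knockout mean was below wild type before recovery in 1547 transcripts and above it afterwards in 1432. Of all 9389 tested, it was below in 5274 before recovery and above in 4753 afterwards. The first set had a median change of -0.67 for wild type and 0.28 for the knockout. In 1200 (73.5%, against 24.9% of all tested) the mean was lower after recovery in wild type and higher in the knockout. The second set had medians of 0.28 and -0.48. There, 743 (55.4%, against 15.7% of all tested) were higher after recovery in wild type and lower in the knockout. In 236 (17.6%) both changes were above 0, with the smaller one in the knockout. Both were above 0 in 13.95% of all tested. The sets were chosen on these same changes, which favours such patterns, so the counts only describe the sets. The first set had a median length of 3670 nt and the second of 1911 nt, against 2797 nt for all tested. Of the 194 transcripts of up to 600 nt, 5 were in the first set and 72, or 37.1%, in the second.

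Of the 77 transcripts that voom called higher in the knockout recovery, 72 (93.5%, against 24.9% of all tested) had a lower mean after recovery in wild type and a higher one in the knockout, their median length was 4441 nt, and 0 were of up to 600 nt. Of the 21 lower ones, 18 (85.7%, against 15.7% of all tested) had the opposite pattern, with a median length of 2032 nt. All 98 were among the transcripts without overlap. The calls were made on the difference between these same changes, which favours opposite changes and no overlap. These shares therefore describe the calls and are not separate evidence for them.

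Transcripts were also grouped by the mean of both recoveries. This mean comes from the same 8 libraries as the difference, so their errors can go together where groups differ in spread. The 87 transcripts whose mean change was 1 or more had a median change of 1.38 for wild type and 1.17 for the knockout, a median difference of -0.32. Of these, 25 (28.7%) had an unadjusted p below 0.05 and were lower in the knockout recovery, against 7.05% of all, and 6 were higher. The median was -0.46 in the replicate 1 and -0.19 in the replicate 2 libraries, -0.14 with TPM and -0.07 after quantile normalization. For the 374 with a mean change from 0.5 to under 1, the medians were 0.81 for wild type and 0.54 for the knockout, and 84 (22.5%) were lower. The 159 with a mean change under -1 had medians of -1.05 and -1.23. In the 7022 with a mean change from -0.5 to under 0.5 the median difference was 0.11. The 87 with a mean change of 1 or more were also shorter and better read, with a median of 1398 nt and 99.8 reads against 2797 nt and 37.6 reads for all, and the part of length and read number in this was not tested.

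Few transcripts had a gap between the genotypes of 1 or more on average over both times. In 52 the knockout was higher by 1 or more on average over both times, and their median difference in recovery was -0.13, with 3 higher (5.77%, against 8.32% of all) and 7 lower (13.5%, against 7.05% of all) at an unadjusted p below 0.05. In 36 it was lower by 1 or more, with a median of -0.22, and 4 higher (11.1%) and 3 lower (8.33%). Their quartiles, -0.69 to 0.20 and -1.18 to 0.57, include 0. The 52 and the 36 transcripts had medians of 20.5 and 13.1 reads, and 9 and 2 of them had at least 50.

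Single transcripts are given for those with at least 50 reads on average, an unadjusted p below 0.05 and no overlap, by the size of the difference, 12 in each direction out of 287 higher and 430 lower. None of the 24 had an adjusted p below 0.05 in the test of all 9389 (limma, from 0.128 to 0.201). In the test restricted to at least 50 reads, 11 of the 12 higher and 10 of the 12 lower ones were called, and voom called all 12 higher and 5 lower ones. In all 12 higher ones the mean was lower after recovery than before recovery in wild type and higher in the knockout. In all 12 lower ones it was the reverse. Choosing the largest differences favours such opposite changes. The limit of 50 is on the mean over all 8 libraries, so a transcript can pass it through the group where it is high. All values that follow are RPKM in replicates 1 and 2.

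The largest difference, in ENSG00000158321, of 5950 nt, rested on 1 library. It was at 11.9 and 9.86 in wild type before recovery and 8.19 and 8.79 after recovery. In the knockout it was at 9.07 and 4.75 before recovery and 85.1 and 14.6 after recovery, the first of these on 164 reads. The other libraries held 22 to 67 reads, so this library also carried its mean of 59.4 reads past the limit of 50. Both knockout libraries after recovery were above the other 6, and far apart from each other. The difference in recovery was 2.59 (SE 0.82, limma adjusted p = 0.199), and 1.36 without knockout 30 min replicate 1. Voom gave it an adjusted p of 0.0499.

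In ENSG00000125503, of 2997 nt, the knockout replicates were close to each other. It was at 59.9 and 38.5 in wild type before recovery and 18.1 and 14.2 after recovery, and at 26.3 and 23.996 in the knockout before recovery and 42.2 and 36.3 after recovery. Wild type after recovery was lowest, the knockout before recovery came next, and wild type before and the knockout after recovery were highest and overlapped. The difference was 2.14 (SE 0.39, limma adjusted p = 0.139, voom adjusted p = 0.0111). In shares of reads, the ratio of after to before in the knockout was 4.51 times that in wild type, with a 95% interval from 3.08 to 6.59 that covers counting error only.

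A transcript of 3770 nt had close replicates in all 4 groups. It was at 33.7 and 30.8 in wild type before recovery and 15.5 and 16.4 after recovery. The knockout was at 17.9 and 18.1 before recovery and 35.2 and 31.2 after recovery, so that its level after recovery overlapped that of wild type before it, and no other pair of groups overlapped. The difference was 1.81 (SE 0.35, limma adjusted p = 0.164) on 226 reads in wild type before recovery, 74 after recovery, and 137 and 97 in the knockout. A transcript of 5049 nt went from 20.5 and 20.2 to 8.55 and 11.5 in wild type and from 13.4 and 11.95 to 20.8 and 22.4 in the knockout, a difference of 1.69 (SE 0.40, limma adjusted p = 0.164). Here the knockout libraries after recovery lay just above the wild-type libraries before it. The mean of 58.6 reads for this transcript passed the limit of 50 through wild type before recovery, with 92 and 99 reads against 30 to 84 elsewhere.

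Other transcripts of this set differed in where the knockout began. A transcript of 5400 nt was at 29.5 and 19.6 in wild type before recovery and at 4.62 and 3.81 in the knockout, on 245 and 47 reads. Its mean of 51.9 reads passed the limit of 50 through wild type before recovery, with 142 and 103 reads against 9 to 46 elsewhere. At 30 min wild type was at 11.9 and 11.5 and the knockout at 5.14 and 14.5, so the groups overlapped only after recovery. A transcript of 3896 nt, the best read of the 12, was at 128 and 88.0 in wild type and 30.8 and 30.0 in the knockout before recovery, and at 48.3 and 75.1 against 65.0 and 46.4 after recovery. In this one as well, the genotypes were apart before recovery and overlapped after recovery. The differences in recovery were 1.90 (SE 0.58) and 1.64 (SE 0.38), and the first was 1.23 without knockout 30 min replicate 2 and 2.56 without replicate 1, which held 9 of its reads. The other 6 had lengths from 2567 to 7813 nt and differences from 1.72 to 1.956, and in 5 of them the replicate 1 libraries gave the larger one by over 1.

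Among transcripts lower in the knockout recovery, ENSG00000143753, of 2032 nt, came first. It was at 48.1 and 64.8 in wild type before recovery and 99.4 and 106 after recovery, and at 164 and 147 in the knockout before recovery and 83.6 and 93.2 after recovery. The 4 groups did not overlap, with the knockout highest before recovery and wild type lowest. The difference was -1.67 (SE 0.29, limma adjusted p = 0.128, voom adjusted p = 0.0111). In shares of reads, the ratio of after to before in wild type was 3.17 times that in the knockout, with a 95% counting interval from 2.45 to 4.09 on 215, 256, 646 and 142 reads.

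ENSG00000001630, of 3155 nt, also had its highest level in the knockout before recovery. It was at 17.4 and 28.4 in wild type before recovery and 35.3 and 32.5 after recovery, and at 53.6 and 52.5 in the knockout before recovery and 21.5 and 33.1 after recovery. The knockout was above all other libraries before recovery and overlapped wild type after recovery. The difference was -1.55 (SE 0.41, limma adjusted p = 0.164), with -2.26 in the replicate 1 and -0.84 in the replicate 2 libraries.

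A transcript of 1854 nt gave nearly the same difference in both replicate sets, -1.49 and -1.46. It was at 98.7 and 92.1 in wild type before recovery and 162 and 186 after recovery, and at 158 and 179 in the knockout before recovery and 91.6 and 130 after recovery. Wild type before recovery and the knockout after recovery formed a low pair of groups and the other groups a high pair. The difference from all libraries was -1.47 (SE 0.29, limma adjusted p = 0.164). The best read of the 12, of 6221 nt, was at 39.0 and 64.5 and then 70.3 and 74.7 in wild type and at 103 and 92.1 and then 56.1 and 53.9 in the knockout, a difference of -1.33 (SE 0.34, limma adjusted p = 0.164). Its knockout libraries were apart by time, and the wild-type libraries were too, by less.

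A transcript of 669 nt, the shortest of the 12, had its times apart in wild type alone. It was at 78.9 and 58.5 in wild type before recovery and 154 and 188 after recovery, against 84.2 and 107 in the knockout before recovery and 73.8 and 114 after recovery. The knockout libraries of both times overlapped. The mean of 50.1 reads for this transcript was just above the limit of 50, with 74 and 65 reads in wild type after recovery and 16 to 70 elsewhere. The difference was -1.37 (SE 0.35, limma adjusted p = 0.164), the change in wild type was 1.31 and that in the knockout -0.05. A transcript of 3964 nt was the opposite case, with a change of 0.03 in wild type and -1.35 in the knockout. The knockout went from 26.4 and 28.5 to 9.34 and 10.99. The mean of 63.4 reads for this transcript passed the limit of 50 through the knockout before recovery, with 130 and 88 reads against 12 to 75 elsewhere. The other 6 had lengths from 1026 to 4238 nt and differences from -1.51 to -1.33. In one of these, of 1188 nt, the difference was -2.58 in the replicate 1 and -0.13 in the replicate 2 libraries, and -0.87 without knockout 30 min replicate 1 against -1.36 with all.

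**Figure D4:**
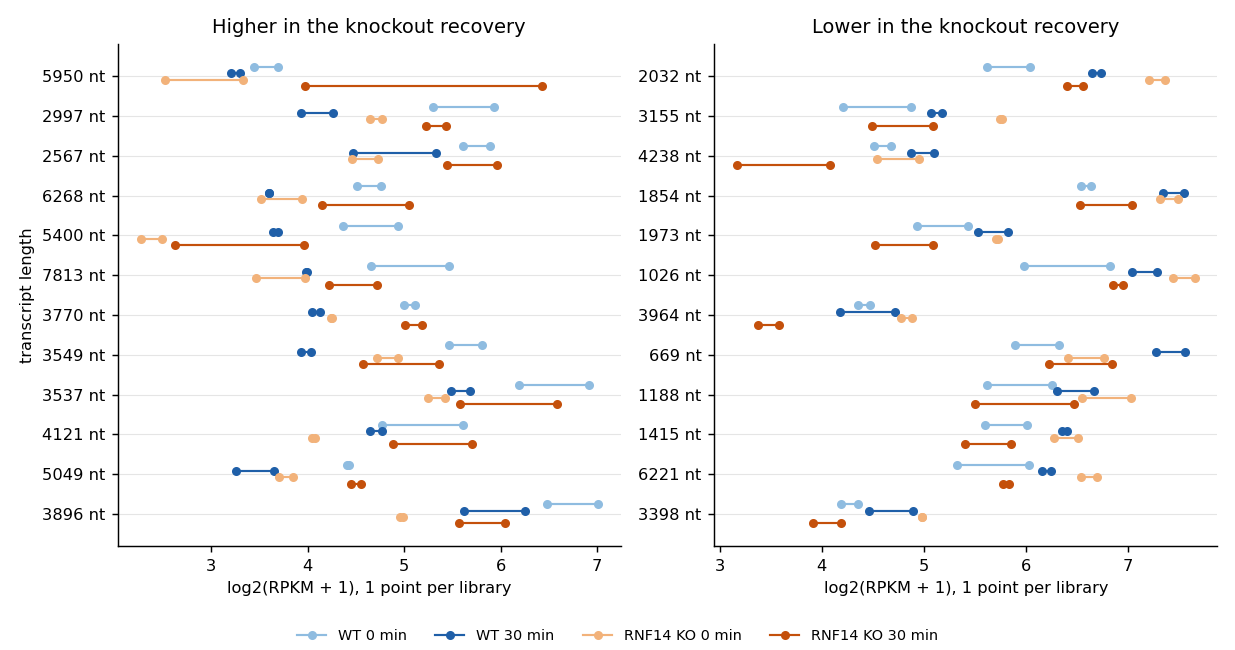
log2(RPKM + 1) of the 12 named transcripts higher (left) and 12 lower (right) in the knockout recovery, labelled by length, with 1 point per library and a line joining the 2 replicates of a group. On the left the group means are lower after recovery in wild type and higher in the knockout, with overlap of single libraries in some; the 5950 nt transcript has its knockout 30 min libraries at 85.1 and 14.6 RPKM.

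The 3 lowest adjusted p-values belonged to transcripts with fewer than 50 reads, outside the set above, and were picked out after their values were seen. A transcript of 916 nt was at 30.6 and 19.1 in wild type before recovery, 6.08 and 8.46 after recovery, 7.91 and 5.61 in the knockout before recovery and 30.3 and 19.02 after recovery, on 4 to 25 reads a library. Its groups formed a high pair and a low pair without overlap. The difference of 3.33 (SE 0.50, limma adjusted p = 0.0722) was the largest of all. The mean of 10 reads for this transcript met the limit of 10 through wild type before recovery, with 25 and 17 reads against 4 to 9 elsewhere. A transcript of 489 nt was at 23.0 and 12.6, then 94.01 and 95.04 in wild type, and at 51.0 and 47.3, then 31.6 and 49.0 in the knockout, a difference of -2.72 (SE 0.41, limma adjusted p = 0.0722). The wild-type libraries did not overlap between times and the knockout libraries did. A transcript of 593 nt was at 129 and 76.4, then 16.4 and 22.9 in wild type, and at 38.02 and 25.99, then 46.9 and 36.7 in the knockout, a difference of 2.68 (SE 0.42, limma adjusted p = 0.0729). It was higher in the knockout recovery, while its length class had a median of -0.38. Voom gave these 3 adjusted p-values of 0.0492, 0.0492 and 0.0513.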

How the data were processed

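Per the file headers, the authors deposited RPKM values for 8 libraries, with a length in nt for each of 19580 transcripts; cutadapt, STAR 2.7.10a and hg38 are listed, without roles, in the submitters' processing notes. Neither the choice of transcript per gene nor the counted part is given in the sources used here. For knockout 30 min replicate 1 the column name ends in an unexplained "take2". RPKM times length gave whole reads for 100% of values above 0, within 0.05 of a read.

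All 8 libraries entered 1 limma-trend fit (limma 3.58.1, R 4.3.3) on log2(RPKM + 1) with no replicate block, two-sided, for transcripts with at least 10 reads on average, tested on simulated data. Voom, also in limma, used the recovered reads as an alternative. Deviations from group means correlated between same-numbered libraries with r from -0.09 to 0.08, so the numbers do not pair them. The fold scale is log2(RPKM + 1), which understates changes of low transcripts. P-values measure the spread between these replicates, and counting intervals cover counting error only. In limma-trend the spread of each transcript was drawn toward that of transcripts of like level, with 9.35 prior degrees of freedom beside 4 residual ones. The transcripts, length classes, 34 gene lists and tests were chosen with earlier results of these data known; the gene lists and cell type markers were not used, as 0 of 19580 identifiers matched a name. Named transcripts were the 12 largest differences in each direction with at least 50 reads, an unadjusted p below 0.05 and no overlap of recoveries. Python 3.11.15, numpy 2.4.6, pandas 2.3.3, scipy 1.17.1 and matplotlib 3.10.9 made the summaries and figures.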

Additional observations from a re-analysis of the deposited data

How the results depend on the processing

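The limma-trend count of 0 at an adjusted p below 0.05 became 3 with a pseudocount of 5, 1 with no filter, 1 with a mean RPKM of at least 1, 78 with at least 50 reads on average, where fewer transcripts are tested, and 98 with voom. It stayed 0 with a pseudocount of 0.1, each other scaling, no trend in the prior and libraries thinned to 323946 reads. Leaving out 1 library gave 0 to 205 calls, with the lone library of a group assumed to vary like the others. Leaving out 1 library from voom, an alternative added after seeing the data, gave 0 to 1005: 247 and 1005 without wild type 0 min replicates 1 and 2, 0 and 4 without wild type 30 min replicates 1 and 2, 2 and 32 without knockout 0 min replicates 1 and 2, and 4 and 89 without knockout 30 min replicates 1 and 2. Voom with the replicate number as a block gave 149. With limma-trend the replicate block gave 0 calls, and 768 higher and 651 lower at an unadjusted p below 0.05, against 781 and 662. Those 2 counts were 386 higher and 478 lower with at least 50 reads, 480 higher and 1059 lower with median centring, and 359 lower with TPM; without 1 library they ran from 453 to 1093 higher and from 393 to 1024 lower. The cause of these shifts was not tested. Depth was lowest in the knockout at 30 min, where the tested transcripts had a median of 15 and 21 reads in replicates 1 and 2.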
